A study of Mus musculus with 2 samples.

Results

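Regulators of mesoderm and endoderm formation were examined in mouse embryonic stem cells that had received a Gbx2 vector or the empty vector. The set holds 10 genes of the 14500 gene symbols in the deposited table, found by symbol, and each of the 10 had a row. It is made of 7 transcription factors (T, Eomes, Snai1, Tbx20, Gata6, Foxa1 and Hnf4a) and 3 surface receptors (Kdr, Cxcr4 and Pdgfra). The genes were proposed with their values in these libraries known and thus selected on the log2 ratio between both libraries, so their common direction is part of how they were chosen and is given as a description, with no test.

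RNA was sequenced from 46C cells, an embryonic stem cell line with a green fluorescent reporter in the Sox1 locus, grown on gelatin in serum medium with LIF, the cytokine that sustains self-renewal. One library is titled PB (empty vector) and the other PB-Gbx2 (vector for the homeobox factor Gbx2), with 1 library per group and no replicate, and no label says whether the cells were a clone or a pool. The source names in the labels are the reverse of the titles, and the groups here follow the titles. Gbx2 stood at a level of 345 in PB and 1178 in PB-Gbx2, the direction that the titles give. With the source names, every direction below would turn around.

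In the gastrulating embryo, cells of the epiblast pass through the primitive streak under Nodal, Wnt and BMP signals and leave it as mesoderm or definitive endoderm. T and Eomes are switched on in the streak, Snai1 represses E-cadherin so that cells can leave the epithelium, and Kdr, Pdgfra and Cxcr4 then appear on the surface of mesoderm or endoderm cells that respond to growth factors and chemokines. Gata6, Hnf4a and Pdgfra also belong to the primitive and visceral endoderm, which forms before gastrulation. Embryonic stem cell cultures in serum are known to hold some cells that drift toward these fates. In RNA from whole cultures, more cells of a kind and more RNA per cell cannot be told apart.

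The promoters of 4 regulators are shown because these genes had the 3 largest ratios (Kdr, Foxa1 and T) or, for Snai1, encode the factor whose motif was found most often. Each window runs from 250 bases before to 50 bases after the annotated start, 5′ to 3′ on the gene's strand, from RefSeq on GRCm38.p6. The reads were handled with mm9, so these positions belong to the RefSeq table and not to the deposited values. Capitals mark matches to the motifs named after the sequences.
Kdr, chr5:75978406-75978705, minus strand: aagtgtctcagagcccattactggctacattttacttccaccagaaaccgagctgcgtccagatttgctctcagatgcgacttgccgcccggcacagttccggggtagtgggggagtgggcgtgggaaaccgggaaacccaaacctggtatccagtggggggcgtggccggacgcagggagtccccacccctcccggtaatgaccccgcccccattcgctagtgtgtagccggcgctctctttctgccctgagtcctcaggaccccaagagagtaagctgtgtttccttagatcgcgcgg
Foxa1, chr12:57546062-57546361, minus strand: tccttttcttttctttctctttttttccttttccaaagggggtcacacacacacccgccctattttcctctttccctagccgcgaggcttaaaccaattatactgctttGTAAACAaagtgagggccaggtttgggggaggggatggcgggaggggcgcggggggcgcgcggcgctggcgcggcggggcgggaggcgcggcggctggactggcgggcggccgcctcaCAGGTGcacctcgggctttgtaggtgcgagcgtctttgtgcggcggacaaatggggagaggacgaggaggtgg
T, chr17:8434173-8434472, plus strand: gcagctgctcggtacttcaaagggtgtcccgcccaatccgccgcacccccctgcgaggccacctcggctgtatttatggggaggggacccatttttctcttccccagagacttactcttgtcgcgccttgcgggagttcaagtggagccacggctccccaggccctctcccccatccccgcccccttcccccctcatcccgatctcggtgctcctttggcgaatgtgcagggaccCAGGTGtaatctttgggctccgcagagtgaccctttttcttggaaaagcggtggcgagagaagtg
Snai1, chr2:167537945-167538244, plus strand: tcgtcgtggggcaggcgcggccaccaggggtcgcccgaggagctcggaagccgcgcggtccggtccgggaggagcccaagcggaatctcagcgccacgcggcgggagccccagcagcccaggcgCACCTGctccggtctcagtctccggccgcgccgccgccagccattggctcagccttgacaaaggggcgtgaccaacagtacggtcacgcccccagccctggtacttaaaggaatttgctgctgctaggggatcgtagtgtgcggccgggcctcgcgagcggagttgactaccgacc

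Motifs that factors of these classes can bind were searched on both strands. Of the 10 regulators, 9 matched the promoter table, with 10 windows because Hnf4a has 2, and Gata6 is missing from it. The E-box of Snail factors, CAGGTG, was in 4 of the 10 windows (Snai1, Foxa1, T and 1 of Hnf4a) and in 20.2% of all 32851 windows in the table. The forkhead motif TGTTTAC was in the Foxa1 window and in 3.65% of all windows. The T-box motif GGTGTGA was in none of the 10 and in 3.98% of all. The homeodomain core, written TAATTA, was in 1 Hnf4a window and in 5.29% of all, and the other Hnf4a window held the motif of GATA factors, AGATAA, found in 11.2% of all. The TATA box, spelled TATAAA, was in the Cxcr4 window, as 2 overlapping matches on opposite strands, and in 13.6% of all. The Kdr window held none of the 6 motifs. CpG dinucleotides ranged from 4 (both Hnf4a windows) and 5 (Pdgfra) to 34 (Snai1), beside a median of 7 over all windows. The largest ratio, that of Kdr, and the smallest, that of Eomes, came from windows with 19 and 10 CpG. A motif match is a run of letters and not a bound site.

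All 10 regulators had a higher level in PB-Gbx2, from 1.68-fold (Eomes) to 9.42-fold (Kdr). The level is the authors' normalized value per gene, a whole number without a stated unit, and its depth in reads is unknown. A gene was called past 2-fold when its log2 ratio, computed on the level plus 1, reached 1 or -1. By this rule 6 of the 10 were higher and none lower, where the same rule called 5.14% of all 14500 genes higher and 5.26% lower. Since the ratio guided the choice, nothing is read from that excess. The sorted values of both libraries are equal, so a near balance of higher and lower genes over the whole table is largely built in. Among the 4863 genes whose mean level lies in the range of the regulators (14 to 171.5), the rule called 11.1% higher and 11.2% lower. With 1.5-fold as the threshold all 10 regulators were higher, where 11.6% of all genes were higher and 12.2% lower. With genes under a level of 50 in both libraries left out, 3 of 6 regulators were past 2-fold, where 3.49% of genes were higher and 3.49% lower. The median log2 ratio of the 10 was 1.08, beside 0 for all genes. The summed level was 475 in PB and 1110 in PB-Gbx2, and without Kdr 451 and 884.

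**Figure D1:**
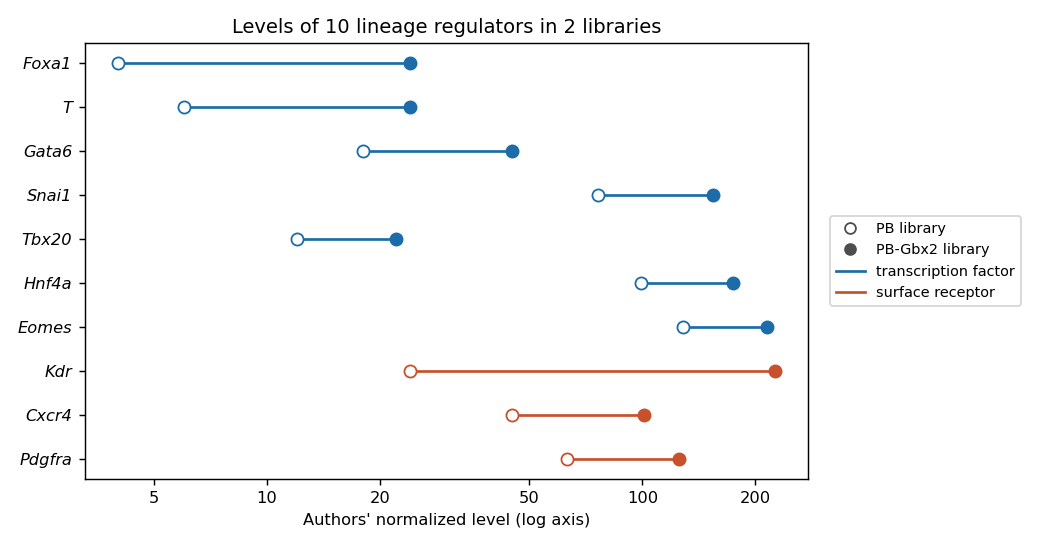
Authors' normalized level (x axis, log scale) of the 7 transcription factors (blue) and 3 surface receptors (orange) in the PB library (open circles) and the PB-Gbx2 library (filled circles), 1 library each. Every filled circle lies to the right of its open circle, by the longest distance for Kdr (24 to 226) and the shortest for Eomes (128 to 215).

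The regulators stood low in both libraries by the authors' value, which is not known to be scaled by length. In PB their levels ran from 4 (Foxa1) to 128 (Eomes), and in PB-Gbx2 from 22 (Tbx20) to 226 (Kdr), against a median of 388 over all genes. Even the highest, Kdr in PB-Gbx2, stood above only 39.4% of genes there. In contrast, the 14 pluripotency markers listed had no level under 1324, with Pou5f1 at 9446 in PB and 10597 in PB-Gbx2. Of these markers 4 were past 2-fold upward and none downward: Nanog (8918 and 19872), Klf4 (4701 and 10924), Zfp42 (8320 and 16671) and Fbxo15 (1324 and 2753). They lay at percentiles 99.0 to 99.8 among genes of like level, so these 4 were higher in the same library as the regulators. Of the 14 log2 ratios, 10 lay above 0, 3 below and 1 at 0, with a median of 0.38. Below 0 lay Tfcp2l1 (12900 and 11892), Utf1 (3843 and 3430) and Lin28a (4206 and 2863). The part of the markers in the levels of the regulators, or the reverse, was not tested. All 14 had a row, so markers of the labelled cell type were present.

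Each ratio was set among the 500 other genes nearest in mean log2 level. Kdr lay above all 500. The other 9 lay between percentile 80.0 (Tbx20) and 95.4 (Snai1), within the middle 95% of genes of like level. Low genes scatter widely: the SD of the log2 ratio was 1.57 among the neighbours of Foxa1 and 0.63 among those of Eomes. The table also lists no gene with a mean level under 8, and a gene that is low in one library can reach that mean only if it is higher in the other. T, at 6 in PB, and Foxa1, at 4 in PB, are such genes. Ranking by the plain mean of the levels, chosen after seeing the data, placed Kdr again above all 500 and the others between percentiles 80.8 and 95.8.

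**Figure D2:**
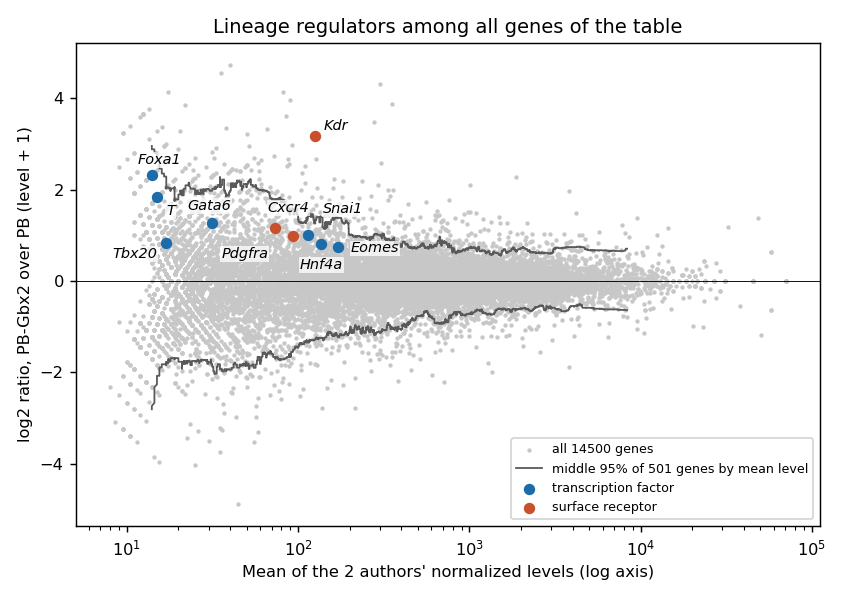
Log2 ratio of PB-Gbx2 over PB on level + 1 (y axis) against the mean of both levels (x axis, log scale) for all 14500 genes (grey), with the transcription factors in blue and the receptors in orange. Dark lines bound the middle 95% of a sliding window of 501 genes, and of the 10 regulators Kdr alone (log2 ratio 3.18) lies outside them.

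Among the transcription factors of the primitive streak, T (Brachyury), the founding T-box factor that specifies nascent mesoderm and notochord, stood at 6 in PB and 24 in PB-Gbx2. That is 4-fold, and rounding to whole numbers alone allows 3.62 to 4.45. Of the 500 genes of like level, 45 had a ratio at least as high, and 30.6% were at least 2-fold higher. The ratio of T, on which it was selected, lay at percentile 91.5, inside the middle 95% of genes of like level. Eomes, the T-box factor that definitive endoderm and the trophoblast require, stood at 128 and 215, a log2 ratio of 0.74 at percentile 90.0. Of the 10 ratios it was the smallest. Snai1, the zinc finger repressor of E-cadherin, stood at 76 and 154, a log2 ratio of 1.01 at percentile 95.4. It was just past 2-fold, and rounding allows 2.01 to 2.05. With a pseudocount of 5 its log2 ratio was 0.97 and the 2-fold call was lost.

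Tbx20, a T-box factor of the heart, stood at 12 and 22. Its log2 ratio of 0.82 lay at percentile 80.0, and 105 of the 500 genes of like level had a ratio at least as high. It was the regulator least set apart from genes of its level.

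Among the endoderm factors, Foxa1, a forkhead factor that opens chromatin in endoderm, stood at 4 in PB and 24 in PB-Gbx2. This was the second largest ratio of the set, with a log2 value of 2.32, and rounding allows 5.22-fold to 7-fold. Its percentile was 94.0, because the 2-fold rule called 33.0% of the genes of like level higher and 33.8% lower. Gata6, the zinc finger factor that directs primitive endoderm, stood at 18 and 45, a log2 ratio of 1.28 at percentile 92.4. Hnf4a, a nuclear receptor of visceral endoderm and liver, stood at 99 and 174, a log2 ratio of 0.81 at percentile 90.0. The ratio of Foxa1 was thus the largest of these 3 and that of Hnf4a the smallest. For each of the 7 factors the adjusted p is 1, per the authors' deposited table.

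The receptors differed more among themselves. Kdr, the VEGF receptor that marks lateral mesoderm and its blood and endothelial progeny, stood at 24 in PB and 226 in PB-Gbx2, a log2 ratio of 3.18. From above 9.32% of genes in PB it came to stand above 39.4% in PB-Gbx2. Its adjusted p is 0.0455 in the authors' deposited table, a value that rests on 1 library per group. Such a value under 0.05, with a higher level in PB-Gbx2, is held by 21 of 14501 rows of the authors' deposited table (0.145%). Cxcr4, the receptor of the chemokine Cxcl12 found on definitive endoderm and migrating mesoderm, stood at 45 and 101, a log2 ratio of 1.15 at percentile 92.8. Pdgfra, the PDGF receptor of primitive endoderm and paraxial mesoderm, stood at 63 and 125, a log2 ratio of 0.98 at percentile 94.2. It missed the 2-fold mark, and rounding allows 1.96 to 2.01. The adjusted p of both is 1 in the authors' deposited table.

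By class, 4 of 7 transcription factors and 2 of 3 receptors were at least 2-fold higher, beside 5.14% of all genes, though all 10 were selected on this ratio. The median log2 ratio was 1.01 for the factors and 1.15 for the receptors. Summed levels went from 343 to 658 for the factors (1.92-fold) and from 132 to 452 for the receptors (3.42-fold). Without Kdr the other 2 receptors summed to 108 and 226, which is 2.09-fold. The gap between the classes in summed level was thus mostly Kdr, and with 3 receptors no test of the classes was made.

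Levels can be compared between genes only per length, and no source used here says whether the authors' value is already scaled by length. If it is not, division by the longest protein-coding GENCODE M21 transcript put Snai1 first in both libraries (46.9 per kb in PB, 95.0 in PB-Gbx2), followed by Eomes (36.0 and 60.4), Cxcr4 (24.9 and 56.0) and Hnf4a (22.7 and 39.9). These 4 kept their order. Kdr moved from the seventh place (4.05 per kb) to the fifth (38.1 per kb), next to Hnf4a. T (2.93 and 11.7), Tbx20 (1.32 and 2.42) and Foxa1 (1.25 and 7.52) made up the last 3 places in both. With 1 library each, no spread is known that could tell neighbours in this order apart.

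Other genes of the same lineages lay on both sides of 0. In 4 lists of lineage genes (streak factors, heart and other mesoderm factors, blood and endothelial genes, endoderm factors), 60 genes besides the regulators were named and 23 had a row. Of these 23, 5 were at least 2-fold higher and none lower, 14 lay above 0, 8 below and 1 at 0, with a median log2 ratio of 0.13. Over all genes 49.2% lay above 0 and 48.9% below, and 5.14% were at least 2-fold higher and 5.26% lower. These lists were written with earlier results of these libraries known and are not independent evidence of a direction.

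Among streak factors without a place in the set, Cdx1, a posterior homeobox gene and Wnt target, went from 34 to 122, while Tbx6 (18 in both) and Mesp2 (105 and 101), factors of paraxial mesoderm and somites, hardly differed. The other 10 of the 16 streak factors, Mixl1, Mesp1 and Gsc among them, had no row and were not analysed here. The 5 further heart and mesoderm factors with a row all lay above 0 and none reached 2-fold, from Gata4 (36 and 68), a partner of Gata6 in heart and endoderm, down to Tcf15 (1100 and 1188), a factor of paraxial mesoderm, and Msx2 (40 and 43). Among endoderm factors, Foxa3, a paralog of Foxa1, went from 16 to 43, past 2-fold. Gata4 and Hhex (126 and 198) lay above 0 short of 2-fold, so that all 4 endoderm factors outside the set lay above 0, with a median log2 ratio of 0.77. Sox17, Sox7 and Foxa2 had no row.

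Blood and endothelial genes went both ways. Of the 12 other than Kdr, 5 lay above 0 and 7 below. Eng, a TGF-beta co-receptor, went from 494 to 1374, Tek, the angiopoietin receptor, from 120 to 244, and Erg, an ETS factor of endothelium, from 8 to 24. Against these, Flt1 (62 and 34), Tie1 (24 and 12), Gata1 (124 and 80), Gata2 (56 and 36) and Esam (36 and 22) were lower without reaching the 2-fold mark on level + 1. Pecam1, which embryonic stem cells also express, stood at 1834 and 1736. The 12 had a median log2 ratio of -0.16.

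**Figure D3:**
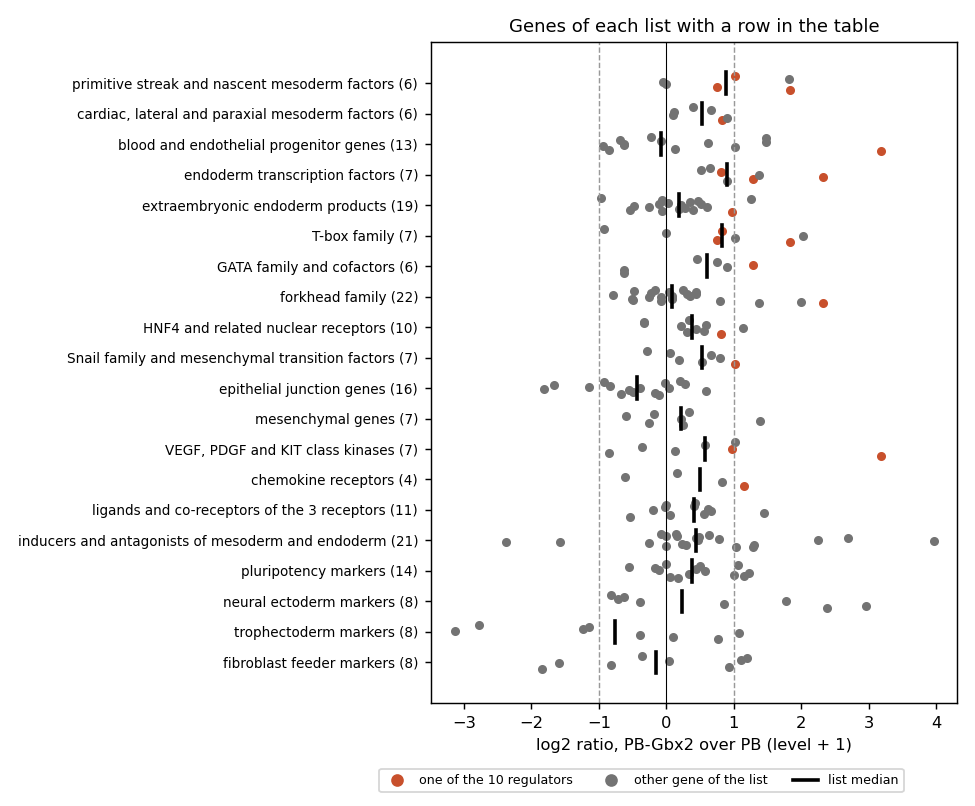
Log2 ratio of PB-Gbx2 over PB on level + 1 (x axis) for every gene with a row in each of 20 lists (y axis, number of genes with a row in brackets), with the 10 regulators in orange, other genes in grey, the list median as a black bar and 2-fold as dashed lines. The median of the endoderm factors is 0.90 with the 3 regulators that were selected on this ratio and 0.77 over the 4 other genes, and median bars lie to the left of 0 for the epithelial junction genes (-0.44) and the blood and endothelial genes (-0.08).

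Within the factor families, direction followed the family only in part. The other T-box genes were Tbx3, a factor of naive pluripotency as well as of mesoderm (3029 and 6107), Tbx4, of hindlimb and allantois (12 and 52), Tbx6, and Mga, a T-box and MYC-network repressor that was lower (7515 and 3938). These 4 T-box genes, without the regulators, had a median log2 ratio of 0.51, with 2 above 0, 1 below and 1 at 0. Of the GATA genes, Gata4 and Gata6 of endoderm and heart lay above 0, and Gata1 and Gata2 of blood below. The cofactor Zfpm1 stood at 264 and 446 and Trps1 at 308 and 420. The 21 forkhead genes other than Foxa1 had a median of 0.08, with 2 at least 2-fold higher (Foxa3 and Foxd3, a stem cell factor at 134 and 538) and none lower, beside 5.14% and 5.26% of all genes. Hnf4a had 9 related nuclear receptors with a row, of which Rxra alone (366 and 807) was past 2-fold. The Snail paralogs Snai2 (22 and 32) and Snai3 (110 and 125) and the E-cadherin repressor Zeb1 (199 and 344) lay above 0 short of 2-fold.

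Genes listed for epithelial junctions lay mostly below 0, and the part of Snai1 in their levels was not tested. Of 16 with a row, 3 were at least 2-fold lower and none higher, beside 5.26% and 5.14% of all genes. Below 0 lay 12 and above it 4, and the median log2 ratio was -0.44. Among those above was the claudin Cldn4 (992 and 1486, percentile 97.0). The 3 were the claudin Cldn7 (196 and 55), the splicing regulator of epithelia Esrp1 (536 and 169) and the tight junction protein Tjp3 (882 and 398). E-cadherin itself, Cdh1, differed little (7932 and 7339). Of 7 mesenchymal genes, Fn1 alone was past 2-fold (26866 and 70328, the highest value of the table). N-cadherin, Cdh2 (26 and 31), and vimentin, Vim (1698 and 1420), did not reach it.

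The ligands of the 3 receptors were mixed. Of 11 ligand and co-receptor genes with a row, 1 was at least 2-fold higher and none lower, beside 5.14% and 5.26% of all genes. Their median log2 ratio was 0.41. Vegfa, the main ligand of Kdr, was lower (3652 and 2512, percentile 3.40), Vegfb (570 and 593) hardly differed, and Vegfc stood at 100 and 148. Pgf, placental growth factor, which binds Flt1, was the member past 2-fold (14 and 40). The co-receptors Nrp1 (11 and 18) and Nrp2 (304 and 266) lay on either side of 0. For Pdgfra, the ligand Pdgfa stood at 1144 and 1758 (percentile 97.4), Pdgfc at 82 and 109 and Pdgfb at 124 and 122. Cxcl12 had no row, and Mif, a second ligand of Cxcr4, was equal at 6982, with its receptor chain Cd74 at 142 and 191. Ackr3, the decoy receptor for Cxcl12, stood at 72 and 128, and of the other chemokine receptors Ackr4 (28 and 18) and Ccr4 (16 and 18) had a row.

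Inducers and antagonists of these lineages were listed together with receptors and transducers of their signals. Of these 32 genes, 21 had a row, with a median log2 ratio of 0.43. Past 2-fold were 6 upward and 2 downward, beside 5.14% and 5.26% of all genes. The higher ones were Nodal (1260 and 3058), Gdf3 (371 and 757), the activin subunit Inhbb (772 and 1891), the non-canonical Wnt ligand Wnt5a (10 and 170), the BMP ligand Bmp2 (3 and 18) and the activin antagonist Fst (6 and 44). Bmp2 and Fst were low in PB, and 33.8% and 13.4% of the genes of like level were at least 2-fold higher. The 2 lower ones were the Nodal antagonists Lefty1 (180 and 34) and Lefty2 (664 and 222). Bmp4 stood at 902 and 1246, and the Nodal co-receptor Tdgf1 at 31035 in both. Wnt3, Wnt3a, Fgf8 and Cer1 had no row.

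Kdr and Pdgfra lie close together on mouse chromosome 5, with only the gene for the receptor kinase Kit between them in the RefSeq order of protein-coding genes (GRCm38.p6). Kit, the stem cell factor receptor, went from 1944 to 3938 (2.03-fold, percentile 99.6), so that all 3 adjacent receptor genes were higher by 1.98-fold or more. Of these, Kdr and Pdgfra were selected on this ratio. Outside the trio, Chic2 (312 and 334) and Fip1l1 (1138 and 1146) on the Pdgfra side hardly differed and Lnx1 was lower (68 and 30). On the Kdr side Srd5a3 was 1.40-fold higher (130 and 182), while Tmem165 (1078 and 994), Clock (732 and 518) and Pdcl2 (64 and 30) were lower. Gsx2, between Chic2 and Pdgfra, had no row. This stretch was looked at after the values were seen. The related kinase genes elsewhere were not higher to that degree: Flt1 and Pdgfrb (626 and 486) were lower and Flt4 (179 and 196) hardly differed. Pdgfrl, a PDGF-receptor-like gene listed with these kinases, stood at 34 and 51.

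**Figure D4:**
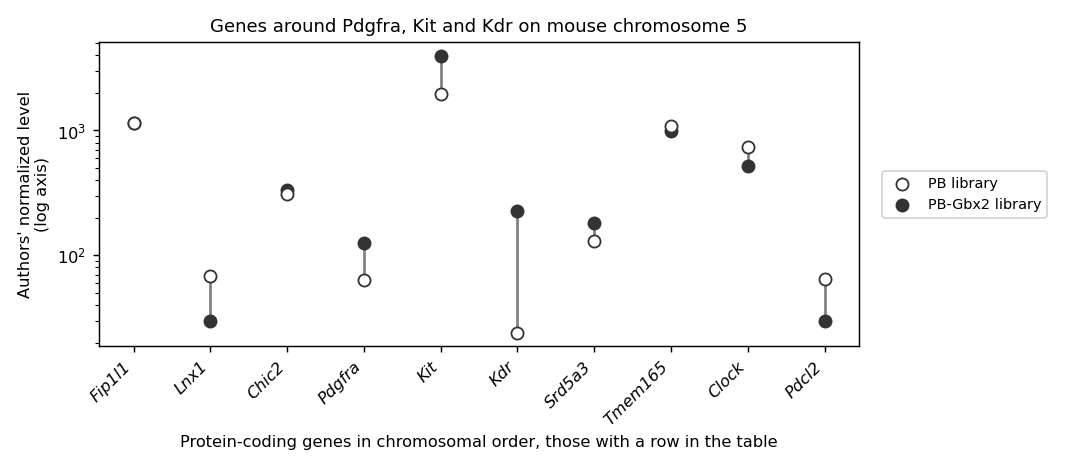
Authors' normalized level (y axis, log scale) in the PB library (open circles) and the PB-Gbx2 library (filled circles) of the protein-coding genes around Pdgfra, Kit and Kdr, in chromosomal order (x axis, not to distance, genes without a row left out). Pdgfra (63 to 125), Kit (1944 to 3938) and Kdr (24 to 226) are higher in PB-Gbx2, Srd5a3 less so, and Lnx1, Clock and Pdcl2 are lower.

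Over all 10 regulators, the 2 protein-coding genes on either side made 39 distinct neighbours, of which 24 had a row. Of these, 3 were at least 2-fold higher and none lower, beside 5.14% and 5.26% of all genes, with a median log2 ratio of 0.14. The 3 were Kit, Kdr as a neighbour of Pdgfra, and R3hdml beside Hnf4a (30 and 78). The 24 include Kdr and Pdgfra, regulators that were selected on this ratio, so nothing is read from the count. Around the other regulators, those of these neighbours that had a row stayed within 2-fold. Examples are Rnf114 (1274 and 1439) beside Snai1, Mib1 (1801 and 1281) beside Gata6 and Golga4 (3314 and 3194) beside Eomes. None of the neighbours of T had a row.

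Genes that extraembryonic endoderm cells make in quantity mostly stayed within 2-fold. Of 19 products with a row, Pdgfra included, the FGF receptor Fgfr2 alone was at least 2-fold higher (42 and 102), none was lower, 11 lay above 0 and 8 below, and the median log2 ratio was 0.18. The basement membrane genes Lamc1 (8518 and 8690), Lamb1 (1736 and 1606) and Sparc (3757 and 3606) differed by less than 1.1-fold. Lama1 (1489 and 2121), Col4a1 (1536 and 1954) and Col4a2 (672 and 926) were higher short of 2-fold. Among genes of like level they lay at percentiles 94.8, 89.4 and 94.4, while Lrp2 (646 and 465) lay at 9. Few genes at such levels reach 2-fold: of the 500 near Lama1, 0.6% were that much higher. Apoe, an apolipoprotein that many cells make, stood at 7487 and 11368 (percentile 96.8) and made up most of the difference in the summed level. The list summed to 26625 in PB and 31596 in PB-Gbx2. Afp and Amn had no row. Markers of other cells that such cultures could hold were mixed: fibroblast markers summed to 2168 and 1323 (8 of 14 with a row, 2 at least 2-fold higher and 2 lower), trophectoderm markers to 3073 and 3190 (8 of 13 with a row, 1 higher and 4 lower, median log2 ratio -0.76) and neural markers to 3257 and 3016 (8 of 14 with a row, 3 higher and none lower). Beside these counts, the rule called 5.14% of all genes higher and 5.26% lower. The 4 lower trophectoderm markers were keratins of simple epithelia, Krt19 (377 and 54), Krt7 (43 and 4), Krt8 (532 and 225) and Krt18 (363 and 164), while the placental factor Tfap2c (1441 and 2439) kept the sum level. No listed gene stood at 0, since the lowest level of the table is 1. The part of other cells in the levels of the regulators was not tested.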

How the data were processed

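RNA of 2 cultures was sequenced. The submitters' processing notes name STAR and mm9, while no source used here gives the version, annotation or counting tool. The deposited level is a score: the authors normalized it and rounded it to whole numbers, and its sorted values are equal in both libraries in all 14501 rows, so read depth is unknown and no count test was used. The authors' deposited ratio and log2 ratio are PB over PB-Gbx2, and their p-values are quoted only as theirs. The 2 rows of 1 repeated symbol were summed. The log2 ratio used here is PB-Gbx2 over PB on level + 1. With 1 library per group no p-value was computed, and the plan's percentile among the 500 nearest genes is a description. The procedure was tested on simulated data with less scatter than these libraries show. Changes were planted only in genes with a geometric mean level of 50 or more. The simulation thus does not cover T, Tbx20, Gata6 and Foxa1, which lie lower.

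The regulators and all 20 lists were chosen with earlier results of these data known. Genes named are the regulators, Gbx2, their paralogs, ligands and co-receptors, and of each other list those past 2-fold (at most 6) plus up to 3 of the highest level; other names, such as chromosomal neighbours and further list members, were chosen, and some genes under the rule left out, after their values were seen. Alternatives were pseudocounts of 0.1 and 5, a minimum level of 50, a 1.5-fold threshold, trimmed-mean rescaling (30 percent from each side) and 200 or 1000 nearest genes. Transcript lengths came from GENCODE M21. Python 3.11.15, numpy 2.4.6 and pandas 2.3.3 were used. Most list genes within 2-fold, and a few others, are given only in the counts and medians.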

Additional observations from a re-analysis of the deposited data

How the results depend on the processing

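With a minimum level of 50 in either library, 3 regulators (Kdr, Cxcr4 and Snai1) of the 6 that remained were at least 2-fold higher, because T, Tbx20, Gata6 and Foxa1 drop out, and over all genes 427 were higher and 428 lower. With a 1.5-fold threshold all 10 regulators were higher, beside 1684 genes higher and 1770 lower over the table. The 2-fold count of the regulators stayed within 1.5 times of 6 with a pseudocount of 0.1 (6) or 5 (5, without Snai1) and with trimmed-mean rescaling, which moves log2 ratios by at most 2e-05 and so says nothing about stability. Of the single ratios of regulators and their median under these settings, 39 of 40 moved by less than 1.5-fold; the exception was Foxa1, at a log2 ratio of 1.69 with a pseudocount of 5. With 200 or 1000 nearest genes, a pseudocount of 5 or ranking by the plain mean, all 40 percentiles stayed within 5 points. Of the 220 counts of genes past the threshold, 34 moved by more than 1.5 times, 23 of them with the 1.5-fold threshold. No paired analysis was possible because there was a single library for each vector, so leaving one out was not possible either. Since read depth is unknown, no counting error is given.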

Other observations

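Neuroectoderm genes were also looked at, since they mark the lineage that competes with mesoderm and endoderm for the epiblast. Of 8 with a row, the bHLH factor Neurod1 went from 150 to 517 and the SoxB1 factors Sox1 and Sox3 from 10 to 56 and from 3 to 30. These 3 lay at percentiles of 98.1 or more among genes of like level. Sox3, at 3 in PB, could reach the lowest mean level listed, 8, only by being higher in PB-Gbx2. Of the genes near its level, 33.0% were at least 2-fold higher and 33.8% lower. Nes, an intermediate filament of neural progenitors, stood at 405 and 733. The locus of Sox1 carries the reporter of this line. Otx2, a factor of epiblast and forebrain, stood at 492 and 373. The neuronal genes Elavl3 (756 and 427), Map2 (193 and 124) and Tubb3 (1248 and 756) were lower short of 2-fold, at percentiles 2.2, 13.2 and 2.4. Pax6 and Dcx had no row. Of the fibroblast markers, the collagen Col1a1 (132 and 36) and the calcium-binding S100a6 (435 and 143) were past 2-fold downward, and the actin-binding Tagln (20 and 44) and the matrix protein Thbs1 (16 and 38) upward. Thy1 stood at 866 and 492 and Fbn1 at 64 and 66.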
